A study of Mus musculus with 9 samples.

Results

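The genes described here encode the enzymes that hydroxylate newly made collagen chains and cross-link finished collagen fibrils. They are 10 of the 55276 gene symbols in the table of counts, chosen by name: the lysyl oxidases *Lox*, *Loxl1*, *Loxl2*, *Loxl3* and *Loxl4*, the lysyl hydroxylases *Plod1*, *Plod2* and *Plod3*, and the catalytic alpha subunits of prolyl 4-hydroxylase, *P4ha1* and *P4ha2*. The choice was made with earlier results of these data known. All 10 passed the filter on low counts and were tested. They were measured in PPTR cells, a line of mouse intrahepatic cholangiocarcinoma (iCCA) cells that came from liver cancer organoids and was grown in 2D in medium with fetal bovine serum. Messenger RNA was sequenced in 3 groups of 3 libraries each: control cells (Vcam1ctrl, WT in the labels) and the Cas9-made clones Vcam1KO1 (KO1) and Vcam1KO2 (KO2), whose guide targets exon 2 of *Vcam1*, the gene of a cell adhesion molecule.

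All 3 groups carry the same engineered background, which includes Prom1CreERT2, a Cre recombinase driven by *Prom1*, and the Rosa-ZsGreen reporter, so the controls share it with the clones. Each Vcam1KO group is 1 single-cell clone, and its 3 libraries come from passages of that clone. The difference between clone and control therefore cannot be told apart from the difference between any one clone and the culture it came from, and p values measure the spread between these libraries. The comparisons asked how the cells changed when *Vcam1* was targeted, with both clones together and with each clone alone against the same 3 control libraries.

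Library totals lay between 53415907 and 125223073 counts. *Vcam1* itself was lower in all 6 clone libraries, with a log2 fold change of -1.36 (standard error 0.17). Replicate 3 of Vcam1KO1 stood apart from the other libraries of that clone. Its 20 proliferation genes summed to 359 CPM (counts scaled to library size by TMM), against 1768 and 2157 CPM in its replicates 1 and 2, and values it moved strongly are also given without it. Replicate 3 of Vcam1KO2 stood apart as well, at 3905 CPM for these genes against 2092 and 2257 CPM. The chi-square per degree of freedom between counts was 40.78 and 40.13 for replicates 1 and 2 of Vcam1KO1 and Vcam1KO2. Against replicate 3 it was 272.9 and 313.4 in Vcam1KO1 and 187.1 and 127.1 in Vcam1KO2. Control libraries differed from each other by similar amounts to those of Vcam1KO2, at 132, 95.09 and 188.9 for the pairs. Their proliferation genes summed to 1267 to 2356 CPM. The epithelial label was met in the control cells, where the 15 epithelial and biliary markers summed to 13887 to 15591 CPM. In the clones 9 of the 12 tested markers were lower, and *Krt18*, a keratin of simple epithelia, fell from 3408 CPM to means of 0.0384 CPM in Vcam1KO1 and 0.0154 CPM in Vcam1KO2, while *Spp1*, osteopontin, rose and made up most of the summed level of 10618 to 11078 CPM in Vcam1KO1 and 7635 to 11082 CPM in Vcam1KO2. The 15 fibroblast markers summed to 3484 to 3691 CPM in control, 9425 to 12014 CPM in Vcam1KO1 and 8418 to 8838 CPM in Vcam1KO2, and 2, 4 and 7 of the 15 epithelial markers were at 3 counts or fewer in every control, Vcam1KO1 and Vcam1KO2 library. Most of the control fibroblast sum was *Vim*, at 2361 to 2785 CPM. *Vim*, *Col6a1* and *Postn* made up most of it in the clones, *Col6a1* being named after its values were seen. *Postn* rose from a mean of 0.445 CPM to 2346 CPM in Vcam1KO1 and 1210 CPM in Vcam1KO2. The 8 haematopoietic markers summed to at most 20.8 CPM and the 8 endothelial markers to at most 2.47 CPM in any library. Of the 15 fibroblast markers 11 were tested, and 7 were higher and 0 lower with both clones together. Over all tested genes 21.7% were higher and 21.2% lower in that comparison. *Vim*, *Dcn*, *Fap* and *Des* did not pass (log2 fold changes 0.33, -0.63, -0.22 and 0.81), and *Dcn* was lower in Vcam1KO1 alone (-4.11, edgeR adjusted p = 2.2e-04), these 4 being named after their values were seen. The part of these cell type markers in the results below was not tested. In bulk RNA, more cells of a type and more RNA per cell cannot be told apart.

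A procollagen chain is modified in the endoplasmic reticulum before it folds. Prolyl 4-hydroxylases hydroxylate prolines, which lets the triple helix hold at body temperature, and lysyl hydroxylases hydroxylate lysines, which sets the kind of cross-link that can form later and where sugars are attached. Both need iron, oxygen, 2-oxoglutarate and ascorbate. After secretion, the copper-dependent lysyl oxidases oxidize lysines and hydroxylysines of collagen and elastin to aldehydes, which condense into the covalent cross-links that stiffen a fibrotic or tumor matrix.

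With both clones together, 6 of the 10 genes were higher than in control cells: *Lox*, *Loxl1*, *Loxl2*, *Loxl3*, *Plod3* and *P4ha1*. None of the 10 was lower (0 genes, 0 also with limma-voom and DESeq2, and 1 more gene, *P4ha2*, reached an unadjusted p under 0.05 in the higher direction). Of all 17672 tested genes 21.7% were called higher and 21.2% lower (43.0% in either direction) at 0.05, with the quasi-likelihood test of edgeR and Benjamini-Hochberg adjustment. The median log2 fold change of the 10 genes was 0.92, against 0.07 for all tested genes. In each of the 6 genes, every clone library lay above every control library, as did 21.2% of all tested genes. Without replicate 3 of Vcam1KO1, 7 genes were higher, *P4ha2* being the added one. All p values of genes below are adjusted and come from the same edgeR quasi-likelihood test.

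**Figure D1:**
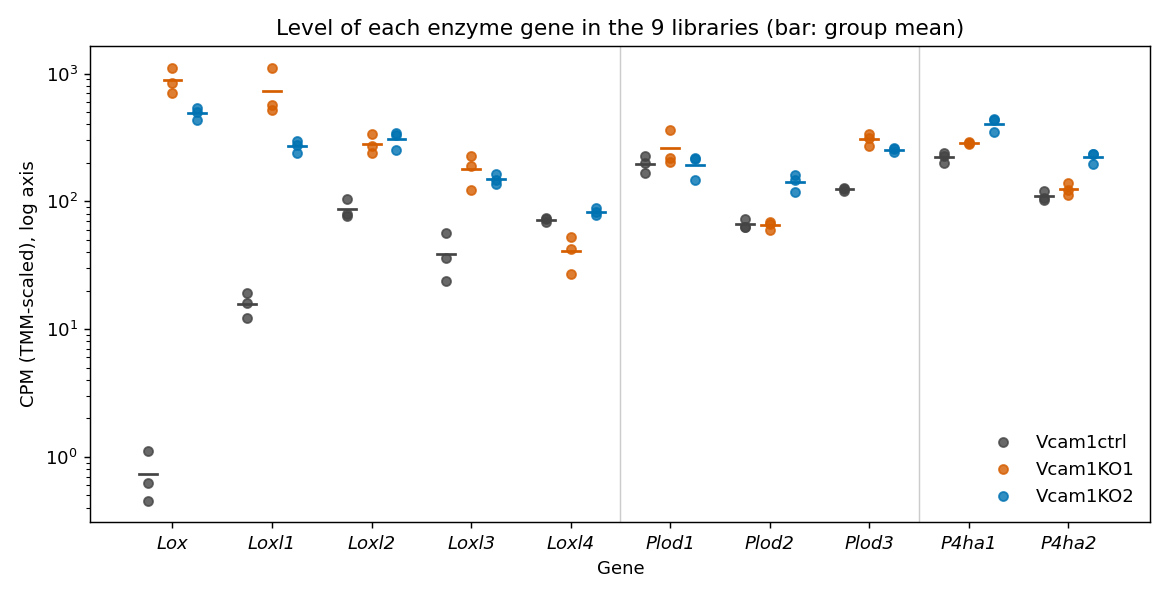
Level of each enzyme gene in CPM (TMM-scaled, log axis) in the 3 Vcam1ctrl, 3 Vcam1KO1 and 3 Vcam1KO2 libraries, 1 point per library, with a bar at the group mean. *Lox* sits near 1 CPM in control cells and between 432 and 1113 CPM in the clones, and *Plod2* and *P4ha2* are raised in Vcam1KO2 while their Vcam1KO1 libraries overlap control.

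The largest change was that of *Lox*, the founding lysyl oxidase, which lies on chr18:52516067-52529867 (minus strand, GRCm38, GENCODE vM21, 7 exons). In control cells it stood at 0.629, 1.11 and 0.455 CPM, from 79, 60 and 36 counts. In Vcam1KO1 libraries it stood at 845, 1113 and 703 CPM, and in Vcam1KO2 libraries at 533, 497 and 432 CPM. The gene thus went from 1.11 CPM or less in control to 432 CPM or more in both clones, and no groups overlapped. The log2 fold change was 9.89 with both clones together (standard error 0.58, edgeR adjusted p = 2.8e-06), 10.28 in Vcam1KO1 (0.40, edgeR adjusted p = 1.1e-07) and 9.42 in Vcam1KO2 (0.38, edgeR adjusted p = 1.9e-07). Leaving out any 1 library moved the combined value only between 9.64 and 10.25.

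*Loxl1* encodes the family member that works with elastin and fibulin 5 in elastic fibres. It lies on chr9:58287738-58313186 (minus strand, 7 exons). It stood at 19.0, 16.1 and 12.3 CPM in control, at 514, 570.2 and 1106 CPM in Vcam1KO1 and at 278, 295 and 239.6 CPM in Vcam1KO2. The 3 groups did not overlap, and replicate 3 was the highest of Vcam1KO1. The log2 fold change was 4.98 with both clones together (standard error 0.62, edgeR adjusted p = 2.0e-04), 5.53 in Vcam1KO1 and 4.10 in Vcam1KO2. Without replicate 3, the value for Vcam1KO1 was 5.10.

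*Loxl2*, *Loxl3* and *Loxl4* share the scavenger receptor domains that *Lox* and *Loxl1* lack. *Loxl2*, which cross-links collagen IV of basement membranes as well as fibrillar collagen, lies on chr14:69609068-69695834 (plus strand, 14 exons). It stood at 76.7, 79.7 and 105 CPM in control, at 238, 269 and 336 CPM in Vcam1KO1 and at 345, 333 and 252 CPM in Vcam1KO2. The clone libraries overlapped each other and all lay above control. As log2 fold changes, these were 1.69 in Vcam1KO1 (standard error 0.19, edgeR adjusted p = 5.3e-05) and 1.83 in Vcam1KO2 (0.19, edgeR adjusted p = 4.0e-05). *Loxl3* lies on chr6:83034173-83052562 (plus strand, 14 exons). It stood at 35.8, 56.1 and 24.0 CPM in control, at 190.3, 226 and 122 CPM in Vcam1KO1 and at 136, 146 and 163 CPM in Vcam1KO2. Its log2 fold change was 2.22 in Vcam1KO1 and 1.94 in Vcam1KO2 (standard error 0.31 for both, edgeR adjusted p = 2.4e-04 and 6.4e-04), and without replicate 3 the value for Vcam1KO1 was 2.43.

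*Loxl4* moved apart from the rest of its family. The gene lies on chr19:42593982-42612813 (minus strand, 15 exons). It stood at 68.6, 72.3 and 73.5 CPM in control, at 42.2, 52.2 and 27.1 CPM in Vcam1KO1 and at 83.0, 88.8 and 77.7 CPM in Vcam1KO2. It was lower in Vcam1KO1 (log2 fold change -0.82, standard error 0.20, edgeR adjusted p = 0.0059), the only one of the 10 genes called lower in a clone, and was -0.60 without replicate 3. In Vcam1KO2 the log2 fold change was 0.22 (standard error 0.20) and did not pass (edgeR adjusted p = 0.39), although its 3 libraries lay above the 3 control libraries.

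Of the lysyl hydroxylases, *Plod3* was the one called higher in both clones. *Plod3* encodes lysyl hydroxylase 3, which also adds glucose to galactosylated hydroxylysine and is needed for collagen IV, and lies on chr5:136987019-136996648 (plus strand, 19 exons). It stood at 119.7, 124 and 128 CPM in control, at 311, 334 and 269 CPM in Vcam1KO1 and at 244, 257 and 259.8 CPM in Vcam1KO2. The clone libraries did not reach down to control, and replicates of each group lay close together. It rose by 1.30 on the log2 scale in Vcam1KO1 (standard error 0.11, edgeR adjusted p = 9.0e-06) and 1.03 in Vcam1KO2 (0.11, edgeR adjusted p = 4.6e-05).

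*Plod2* encodes lysyl hydroxylase 2, the enzyme that hydroxylates the telopeptides and so directs the stable hydroxylysine aldehyde cross-links of fibrosis. It lies on chr9:92542223-92608428 (plus strand, 20 exons). It stood at 73.0, 63.0 and 62.5 CPM in control, at 68.6, 66.2 and 59.9 CPM in Vcam1KO1 and at 161, 148 and 118 CPM in Vcam1KO2. The Vcam1KO2 libraries all lay above those of control and Vcam1KO1, which overlapped each other. Its log2 fold change was 1.10 in Vcam1KO2 (standard error 0.13, edgeR adjusted p = 1.1e-04) and -0.03 in Vcam1KO1 (0.13, edgeR adjusted p = 0.87). *Plod1*, lysyl hydroxylase 1, which acts on lysines of the triple helix, lies on chr4:147909753-147936767 (minus strand, 19 exons) and did not pass in any comparison. It stood at 198, 166 and 227 CPM in control, at 218, 204 and 359 CPM in Vcam1KO1 and at 215, 218 and 148 CPM in Vcam1KO2. Its log2 fold change was 0.40 in Vcam1KO1, and 0.10 without replicate 3, and -0.02 in Vcam1KO2 (standard error 0.24 for both clones).

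The prolyl 4-hydroxylase subunits were raised mainly in Vcam1KO2. *P4ha1*, the alpha subunit that forms the main enzyme in most cells, lies on chr10:59323296-59373304 (plus strand, 15 exons). It stood at 227, 200.0 and 239.6 CPM in control, at 284, 289 and 283 CPM in Vcam1KO1 and at 432, 441 and 346 CPM in Vcam1KO2. The 3 groups did not overlap, with Vcam1KO1 in between. The log2 fold change was 0.87 in Vcam1KO2 (standard error 0.13, edgeR adjusted p = 3.4e-04) and 0.36 in Vcam1KO1 (0.13, edgeR adjusted p = 0.032). The Vcam1KO1 call was lost under 6 of 13 alternatives, among them leaving out control replicate 1 (edgeR adjusted p = 0.069), control replicate 2 (0.16), or replicate 1 or 2 of Vcam1KO1 (0.071 and 0.079). The combined call (log2 fold change 0.64, edgeR adjusted p = 0.023) was lost without control replicate 1, 2 or 3 (0.069, 0.12 and 0.05).

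*P4ha2*, the alpha subunit of the second enzyme form, lies on chr11:54100095-54131665 (plus strand, 16 exons). It stood at 107, 102 and 119.6 CPM in control, at 138, 122 and 113 CPM in Vcam1KO1 and at 236, 236 and 197 CPM in Vcam1KO2. Control and Vcam1KO1 overlapped, and Vcam1KO2 lay above both. Against control this was a log2 fold change of 1.03 in Vcam1KO2 (standard error 0.12, edgeR adjusted p = 1.1e-04) and 0.19 in Vcam1KO1 (0.12, edgeR adjusted p = 0.22). With both clones together it was 0.67 (0.27, edgeR adjusted p = 0.073), and passed without replicate 3 of Vcam1KO1 (0.77, edgeR adjusted p = 0.031).

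**Figure D2:**
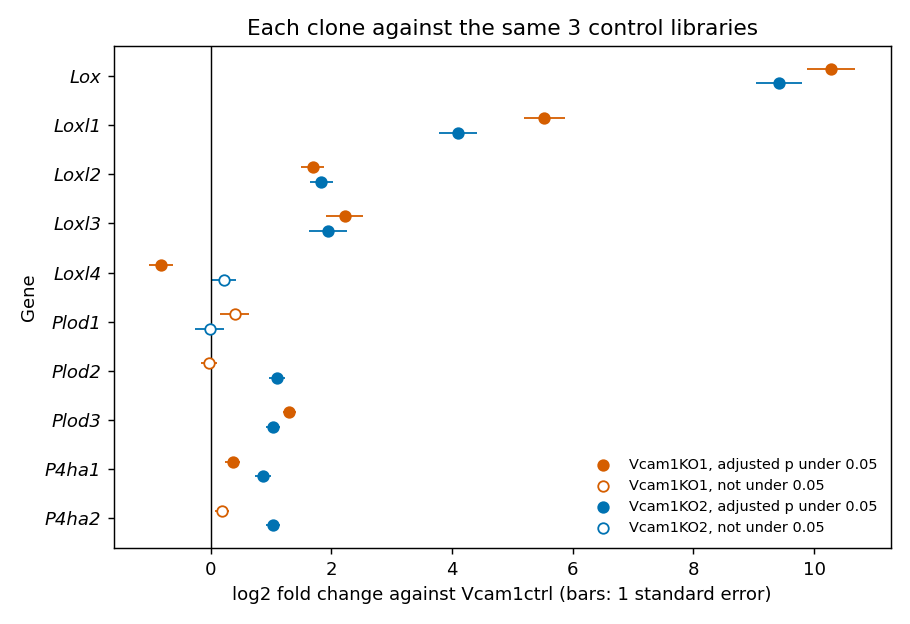
log2 fold change of each enzyme gene in Vcam1KO1 and in Vcam1KO2 against the same 3 Vcam1ctrl libraries, with bars of 1 standard error and filled points where the edgeR adjusted p was under 0.05. *Lox*, *Loxl1*, *Loxl2*, *Loxl3*, *Plod3* and *P4ha1* are filled and positive in both clones, the Vcam1KO1 call of *P4ha1* being lost under 6 of 13 alternatives. *Loxl4* is filled and negative in Vcam1KO1, and *Plod2* and *P4ha2* are filled in Vcam1KO2.

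In counts, 6 of the 10 genes were higher and 1 lower in Vcam1KO1, where 29.9% of all tested genes were called higher and 30.0% lower. The share called in either direction was 59.9%. In Vcam1KO2, 8 were higher and 0 lower (0 lower also with limma-voom and DESeq2, and 8 genes in all at an unadjusted p under 0.05), where 25.3% of tested genes were higher and 26.1% lower (51.4% in all). The medians of the 10 genes were 0.85 in Vcam1KO1 and 1.07 in Vcam1KO2, against 0.02 and 0.00 for all tested genes. Both comparisons use the same control libraries, so their agreement is not independent.

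The clones were then compared with each other, which is the test of whether the effect on a gene differed between them. Of the 10 genes, 6 differed, 2 of them higher in Vcam1KO1 and 4 lower, where 20.2% of all tested genes were higher and 18.5% lower in that clone (38.7% in all). *Loxl1* was higher in Vcam1KO1 (log2 difference 1.43, standard error 0.29, edgeR adjusted p = 0.0042), and the call held without replicate 3 of that clone (edgeR adjusted p = 0.003). *Lox* was higher by 0.86 (0.26, edgeR adjusted p = 0.028), a call that was lost on leaving out any 1 of the other 5 clone libraries (edgeR adjusted p from 0.053 to 0.094) and held without replicate 3 of Vcam1KO1 (1.01, edgeR adjusted p = 0.017).

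The 4 genes lower in Vcam1KO1 than in Vcam1KO2 were *Loxl4*, *Plod2*, *P4ha1* and *P4ha2*. The log2 difference was -1.04 for *Loxl4* (standard error 0.20, edgeR adjusted p = 0.0034), -1.13 for *Plod2* (0.13, edgeR adjusted p = 2.6e-04), -0.84 for *P4ha2* (0.12, edgeR adjusted p = 8.6e-04) and -0.51 for *P4ha1* (0.13, edgeR adjusted p = 0.011). The call of *P4ha1* was lost without replicate 2 of Vcam1KO2 (edgeR adjusted p = 0.051). In these 6 genes and in *Plod3* the libraries of the clones did not overlap, as in 54.9% of all tested genes. *Loxl2*, *Loxl3*, *Plod1* and *Plod3* did not pass, with log2 differences of -0.14, 0.27, 0.43 and 0.26. *Plod3* passed without replicate 3 of Vcam1KO1 (0.35, edgeR adjusted p = 0.025).

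Promoters are shown for the hydroxylase genes that the results turn on and that the RefSeq table holds: *P4ha1* and *P4ha2*, which differed between the clones, and *Plod3*, which rose in both. Hypoxia-inducible factors are known to drive several collagen hydroxylase genes, and the window of 250 bases before the RefSeq start was searched for their core motif, ACGTG or GCGTG, on both strands, with overlapping matches allowed. Matches are in capitals, and those on the other strand read CACGT or CACGC. The windows lie at chr10:59323046-59323295 (plus strand), chr11:54100674-54100923 (plus strand) and chr5:136986769-136987018 (plus strand) of GRCm38.p6. None of their bases lies in an annotated exon of the gene, and that of *P4ha2* lies inside the gene's outer bounds in GENCODE.
P4ha1: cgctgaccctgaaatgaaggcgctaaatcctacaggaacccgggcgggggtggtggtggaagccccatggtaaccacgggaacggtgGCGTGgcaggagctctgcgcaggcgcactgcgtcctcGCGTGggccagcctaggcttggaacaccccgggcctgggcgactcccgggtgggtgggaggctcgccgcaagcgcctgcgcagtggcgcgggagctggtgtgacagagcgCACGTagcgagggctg
P4ha2: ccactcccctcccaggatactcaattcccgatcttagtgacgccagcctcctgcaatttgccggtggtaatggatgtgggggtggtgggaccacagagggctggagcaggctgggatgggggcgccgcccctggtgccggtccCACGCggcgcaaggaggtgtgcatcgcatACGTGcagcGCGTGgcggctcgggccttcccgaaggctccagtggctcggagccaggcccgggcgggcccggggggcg
Plod3: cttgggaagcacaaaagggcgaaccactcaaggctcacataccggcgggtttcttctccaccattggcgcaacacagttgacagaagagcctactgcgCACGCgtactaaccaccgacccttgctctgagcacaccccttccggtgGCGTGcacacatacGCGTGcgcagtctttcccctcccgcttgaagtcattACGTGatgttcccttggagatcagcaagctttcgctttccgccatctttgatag
The windows of *P4ha1* and *P4ha2* held 3 matches each, and that of *Plod3* held 4. Of all 32851 promoters listed, 6.58% held 3 or more and 2.58% held 4 or more. Among the 15420 promoters of tested genes, these shares were 10.5% and 4.32%. The 3 genes shown were chosen by their levels, so a link between matches and levels was not tested. *Loxl4* and *Plod1* held 1 match each, and at least 1 was held by 38.6% of all promoters and 52.2% of those of tested genes. The table gave promoters for 5 of the 10 genes, and *Lox*, *Loxl1*, *Loxl2*, *Loxl3* and *Plod2* were not searched. A match is a run of letters and not a bound site.

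The 5 hydroxylase genes were set beside genes known to be induced by hypoxia. Of a list of 26 such genes, all tested, 1 was higher and 11 lower with both clones together, with a median log2 fold change of -0.80. *Kdm3a*, a histone demethylase, was the one higher (0.35, edgeR adjusted p = 0.035). *Slc2a1*, the glucose transporter, fell from a mean of 757 CPM to 62.8 CPM in Vcam1KO1 and 105 CPM in Vcam1KO2 (log2 fold change -3.17, edgeR adjusted p = 1.0e-05). *Ero1l*, an oxidase of the endoplasmic reticulum, fell from 545 CPM to 28.9 and 145 CPM (-2.65, edgeR adjusted p = 0.01). In Vcam1KO1, 19 of the list were lower and 2 higher, in Vcam1KO2 10 and 1. Between the clones, 14 of the 26 were lower and 2 higher in Vcam1KO1. Of all tested genes, 21.2% were lower with both clones together, 30.0% in Vcam1KO1 and 26.1% in Vcam1KO2. Between the clones 18.5% were lower in Vcam1KO1. Of the 5 hydroxylase genes, *P4ha1*, *P4ha2* and *Plod2* were called lower in Vcam1KO1 in that comparison, and *Plod1* (0.43) and *Plod3* (0.26) did not pass. Whether hypoxia signalling has a part in the levels of these genes was not tested.

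**Figure D3:**
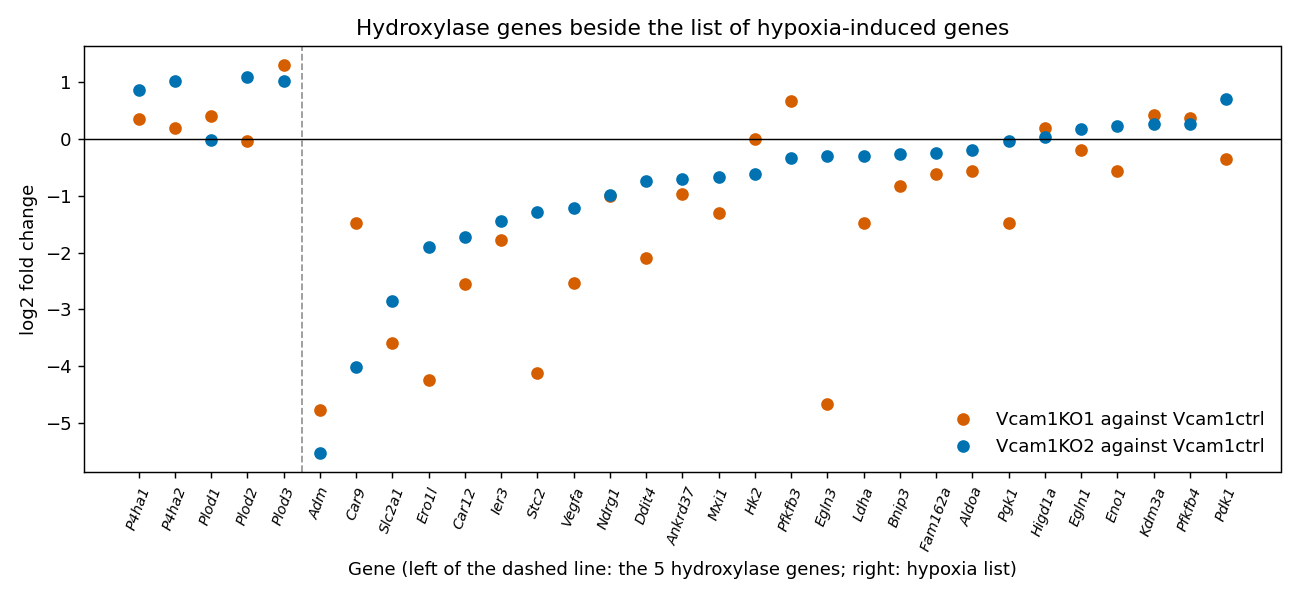
log2 fold change against Vcam1ctrl in Vcam1KO1 and Vcam1KO2 for the 5 hydroxylase genes (left of the dashed line) and for the 26 genes of the hypoxia list, ordered by their value in Vcam1KO2. The hydroxylase genes lie between -0.03 and 1.30 in Vcam1KO1 and between -0.02 and 1.10 in Vcam1KO2, and most of the listed genes lie below 0 in both clones.

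To compare levels between genes, CPM was divided by the length in kilobases of the longest protein-coding transcript. On this scale *Plod1* led in control cells (60.7), followed by *P4ha1* (55), *P4ha2* (48.3), *Plod3* (37.8), *Loxl4* (19.1), *Plod2* (18.1), *Loxl2* (16.4), *Loxl3* (9.43), *Loxl1* (4.8) and *Lox* (0.154), all in CPM per kilobase. Neighbours overlapped between *Plod1*, *P4ha1* and *P4ha2* and between *Loxl4*, *Plod2* and *Loxl2*. *Lox* was last in control by each of the 3 lengths tried, while the order of other genes turned with the length. By coding length *P4ha1* (139) stood above *Plod1* (90.1) in control, and by mean transcript length *P4ha2* (93.1) stood above *P4ha1* (71.3).

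In Vcam1KO1 *Loxl1* (221) and *Lox* (187) stood first and overlapped, followed by *Plod3* (92.9), *Plod1* (80.3), *P4ha1* (70.5), *P4ha2* (55), *Loxl2* (52.8), *Loxl3* (43.7), *Plod2* (17.7) and *Loxl4* (10.8), in CPM per kilobase. Neighbours from *Plod3* to *P4ha1* overlapped, as did those from *P4ha2* to *Loxl3*. In Vcam1KO2 the order was *Lox* (103), *P4ha1* (100.5), *P4ha2* (98.6), *Loxl1* (82.1), *Plod3* (77.3), *Plod1* (59.7), *Loxl2* (58.3), *Plod2* (38.8), *Loxl3* (36.3) and *Loxl4* (22.2). There neighbours from *Lox* to *Plod3* overlapped, as did *Plod1* and *Loxl2*, and *Plod2* and *Loxl3*. By mean transcript length *P4ha2* (190.0) led in Vcam1KO2 and *Lox* (106) stood at rank 5, and by coding length *Lox* led in both clones (719 and 395).

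The make-up of the lysyl oxidases differed between control and clones. Their summed level was 49.9 ± 2.97 CPM per kilobase (SD, n = 3) in control, 516 ± 74.1 in Vcam1KO1, which is 10.3 times the control, and 302 ± 25.9 in Vcam1KO2, which is 6.05 times. In control *Loxl4* made up 38.4% and *Loxl2* 32.9% of the sum, and *Lox* 0.305%. In Vcam1KO1 *Loxl1* made up 42.0% and *Lox* 36.9%, or 34.3% and 42.7% without replicate 3, which turns their order. In Vcam1KO2 *Lox* made up 34% and *Loxl1* 27.2%. *Loxl4* fell to 2.16% and 7.39% of the sum. These shares rest on the length used: with the coding length, *Lox* made up 0.616% in control, 53.9% in Vcam1KO1 and 50.7% in Vcam1KO2, and *Loxl2* (39.3%) passed *Loxl4* (33.1%) in control.

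The hydroxylase families changed less. The summed lysyl hydroxylases were at 117 ± 9.96 CPM per kilobase in control, 191 ± 15.7 in Vcam1KO1 (1.64 times) and 176 ± 16.3 in Vcam1KO2 (1.51 times), with *Plod3* going from 32.6% to 49.1% (54.1% without replicate 3 of Vcam1KO1) and 44.3% of the sum. The prolyl 4-hydroxylase subunits were at 103 ± 8.86 in control, 126 ± 5.87 in Vcam1KO1 (1.21 times) and 199 ± 22.8 in Vcam1KO2 (1.93 times). *P4ha1* made up 53.2%, 56.3% and 50.4% of these, and in control 43.4% by mean transcript length or 67.1% by coding length.

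**Figure D4:**
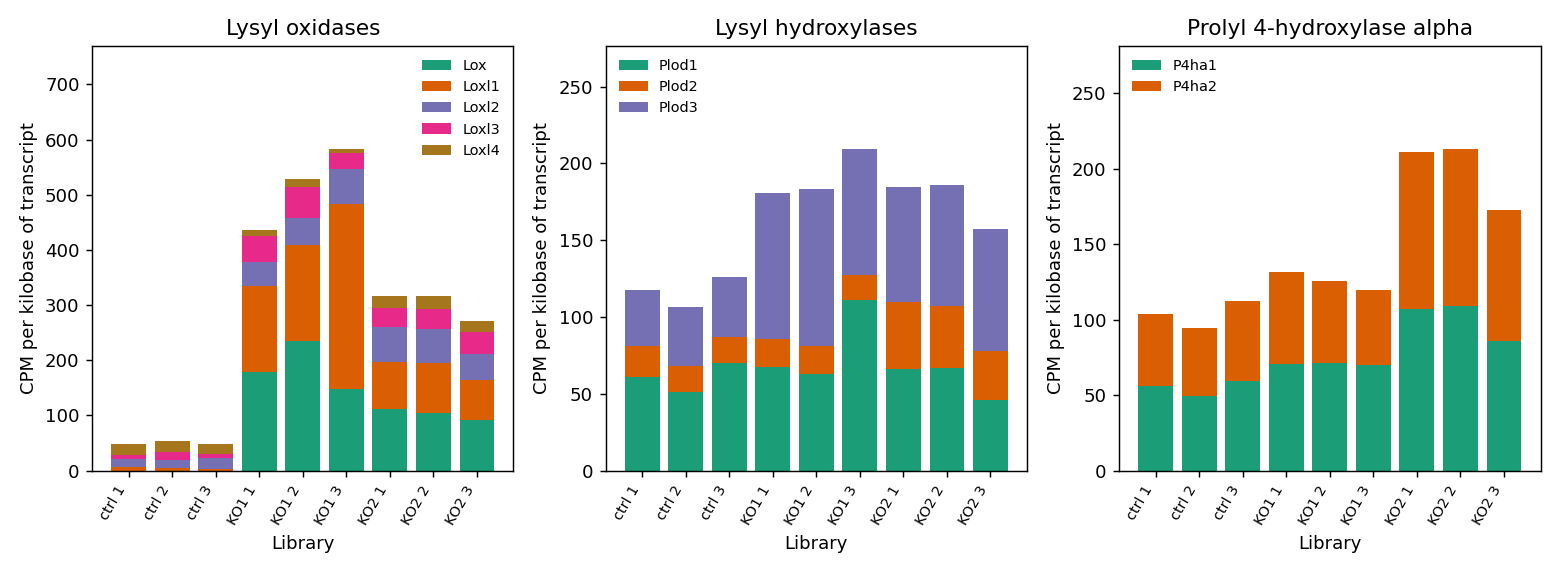
Level of each gene in CPM per kilobase of its longest protein-coding transcript, stacked by family, in each of the 9 libraries (ctrl is Vcam1ctrl, KO1 and KO2 the clones). The lysyl oxidase sum rises from about 50 in control to between 272 and 584 in the clones, where *Lox* and *Loxl1* fill most of the bar, while the hydroxylase sums stay between 94.4 and 213.

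The families were also set against the level of their substrate. The 11 fibrillar collagen genes summed to 175 ± 52.7 CPM per kilobase in control, 2171 ± 196 in Vcam1KO1 and 1343 ± 133 in Vcam1KO2. Most of the clones' sum was 1 gene, *Col1a1*, with mean CPM of 99.4 in control, 8530 in Vcam1KO1 and 4735 in Vcam1KO2. The whole list summed to 709 to 1301, 11931 to 14167 and 7150 to 8499 CPM. Per 1000 units of fibrillar collagen, lysyl oxidases were at 218 to 424 in control, 203 to 265 in Vcam1KO1 and 223 to 229 in Vcam1KO2, so the groups overlapped. Lysyl hydroxylases were at 541 to 1089 in control, 84.1 to 92.1 in Vcam1KO1 and 129.8 to 132 in Vcam1KO2. Prolyl 4-hydroxylase subunits were at 476 to 969, 50.4 to 63.1 and 145 to 150.3. The hydroxylase ratios of clones and control did not overlap. These ratios use the longest transcript only and were not tested. With 3 libraries against 3 an exact permutation test could not go below 0.10.

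Genes that act beside these enzymes were counted in lists. For each list that follows, the shares over all tested genes with both clones together were 21.7% higher and 21.2% lower. Of 10 other hydroxylation genes 3 were higher and 1 lower with both clones together (median log2 fold change 0.16). *P3h2* and *P3h3*, prolyl 3-hydroxylase family genes, were higher (log2 fold change 2.92 and 1.98, edgeR adjusted p = 0.014 and 0.0017), and the third was *Crtap*, part of the prolyl 3-hydroxylation complex (1.59, edgeR adjusted p = 1.7e-05), which was named after its values were seen. *P3h4*, whose protein forms a complex with lysyl hydroxylase 1, was nearly lost, from 72.8, 74.8 and 109 CPM in control to 0.18, 0.0522 and 0.144 CPM in Vcam1KO1 and at most 1 count in Vcam1KO2, which is at least 1859-fold lower against 3 counts per library. The log2 fold change in Vcam1KO1 was -9.48 (edgeR adjusted p = 1.5e-07).

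*P4ha3*, *P4hb* and *Fkbp10* were picked after their values were seen, because their proteins stand closest to the enzymes above. *P4ha3*, the remaining catalytic subunit, stood at 3.20, 4.87 and 2.38 CPM in control, at 0.524, 0.323 and 0.112 CPM in Vcam1KO1 and at 4.39, 4.51 and 8.46 CPM in Vcam1KO2, so that it too was lower in Vcam1KO1 than in Vcam1KO2 (log2 difference -4.16, edgeR adjusted p = 4.4e-04). *P4hb*, the beta subunit that all prolyl 4-hydroxylases share, stood at 1329 to 1750 CPM in control and had a log2 fold change of 0.25 in Vcam1KO1 (edgeR adjusted p = 0.15) and 0.38 in Vcam1KO2 (0.044). *Fkbp10*, a chaperone known to aid lysyl hydroxylase 2, had at most 0.609 CPM in any library.

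Of 16 genes for the folding and export of procollagen 8 were higher and 2 lower (median 0.57). *Sparc*, a collagen-binding protein, rose from a mean of 452 CPM to 6016 and 4499 CPM (log2 fold change 3.54, edgeR adjusted p = 7.1e-06), and *Fkbp7* by 2.76 (edgeR adjusted p = 2.4e-04). *Mia2*, which takes part in loading large cargo at exit sites, fell by 1.81 on the log2 scale (edgeR adjusted p = 1.6e-04). *Tmem38b*, an ion channel of the endoplasmic reticulum that collagen hydroxylation depends on, fell by 1.38 (edgeR adjusted p = 0.011).

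Of 9 genes for the processing of procollagen ends 8 were tested, 7 were higher and 0 lower, and *Furin*, the remaining one, had a log2 fold change of 0.11 (edgeR adjusted p = 0.51). *Adamts2*, which removes the amino end, rose by 5.20 (edgeR adjusted p = 1.4e-04), and *Pcolce*, an enhancer of the carboxyl end protease, by 4.62 (edgeR adjusted p = 6.0e-06). *Bmp1*, which removes the carboxyl end of collagen and also activates the lysyl oxidase proenzyme, stood at 116 to 140 CPM in control and at 675 to 1066 CPM in the clones (2.65, edgeR adjusted p = 6.9e-06). It was named for that role after its values were seen. Of 7 genes of other cross-linkers 3 were higher and 1 lower, with *Tgm2*, transglutaminase 2, at 1.94 (edgeR adjusted p = 2.2e-04) and *Pxdn*, the peroxidase that cross-links collagen IV, at 1.69 (edgeR adjusted p = 7.9e-04).

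Of 11 fibrillar collagen genes 10 were tested, 5 were higher and 1 lower (median 1.71). *Col1a1* rose by 6.06 (edgeR adjusted p = 1.4e-05) and *Col3a1* by 4.88 (edgeR adjusted p = 0.0022), and *Col27a1* fell by 2.36 on the log2 scale (edgeR adjusted p = 0.0061). Of the 6 collagen IV genes 4 were higher and 2 lower, with *Col4a1* at 1.66 (edgeR adjusted p = 3.9e-04) and *Col4a3* at -5.98 (edgeR adjusted p = 1.1e-04).

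For the cofactors, 9 of 10 genes of copper and ascorbate supply were tested, 2 were higher and 4 lower (median -0.51). *Steap3*, a metalloreductase, rose by 3.34 (edgeR adjusted p = 5.4e-07) and *Atp7a*, the pump that hands copper to secreted enzymes such as lysyl oxidase, by 0.59 (edgeR adjusted p = 0.021). *Slc31a1*, the main copper importer, stood at 97.5, 98.3 and 99.6 CPM in control, at 51.3, 50.8 and 52.5 CPM in Vcam1KO1 and at 63.1, 59.0 and 44.3 CPM in Vcam1KO2 (log2 fold change -0.88, edgeR adjusted p = 3.1e-04). *Gsto1*, which can reduce oxidized ascorbate, fell by 2.20 (edgeR adjusted p = 3.5e-05).

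**Figure D5:**
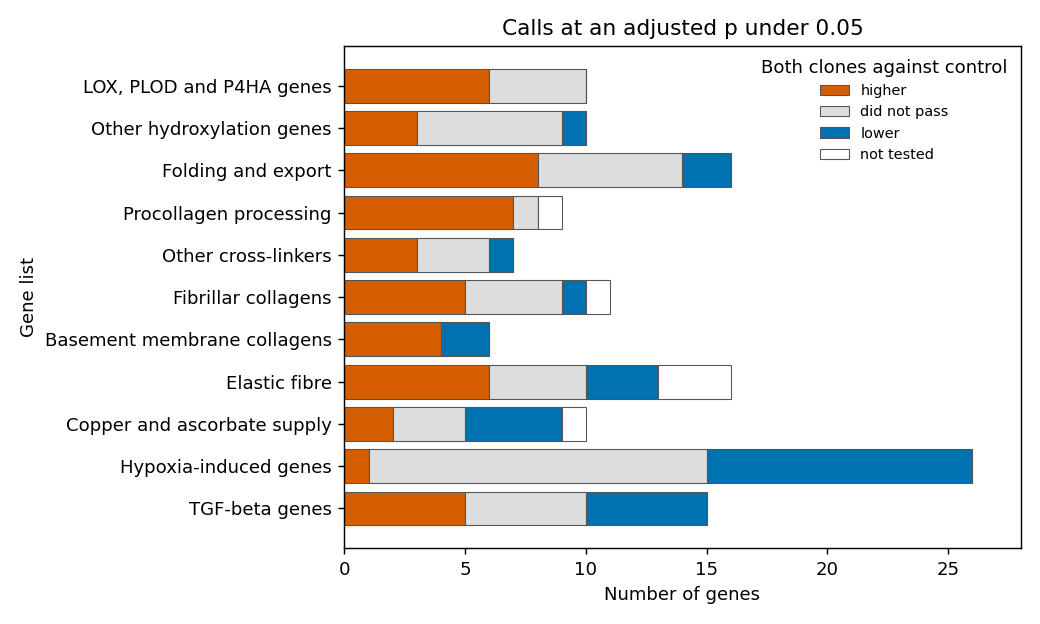
Number of genes called higher, called lower, not passing and not tested (horizontal axis) with both clones together against control, at an edgeR adjusted p under 0.05, for the 10 enzyme genes and 10 lists of the genes around them. Procollagen processing has 7 of 9 genes higher and 0 lower, and the hypoxia list has 1 of 26 higher and 11 lower. Over all tested genes 21.7% were higher and 21.2% lower.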

How the data were processed

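Stranded, paired-end messenger RNA libraries, 3 per group and 9 in all, were quantified by the authors with kallisto 0.46.1 on GENCODE transcripts of GRCm38 (mm10), and the deposited table holds estimated counts per gene symbol, already whole numbers and not normalized. The step that summed transcripts is not given in the sources used here. TMM factors scaled the libraries, and filterByExpr kept 17672 genes (edgeR 4.0.16 under R 4.3.3). A fit with 2 groups compared 6 clone with 3 control libraries, and a fit with 3 groups compared each clone with control and the clones with each other. Genes were tested by quasi-likelihood in edgeR, with Benjamini-Hochberg adjustment over all of them at 0.05, and the standard error is the log2 fold change divided by the square root of F.

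Positions, exons and lengths are from GENCODE vM21, another release than the one used for the counts, so lengths per kilobase are approximate. The library totals make counting error small beside the spread between libraries. A floor of 3 counts per library was used for genes near 0. Alternatives were limma-voom (limma 3.58.1), DESeq2 1.42.0, other normalizations and filters, each library left out, a mean of both clone contrasts, fits restricted to 6 libraries and other lengths. The model was tested on simulated data.

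The members and gene lists were chosen with earlier results of these data known. All 10 enzymes are given. From each list the text names at most the 2 largest increases and the 2 largest decreases among called genes whose mean reached 5 CPM and whose clone and control libraries did not overlap, and says where a gene was named after its values were seen. Some genes and list members the rule covers are not reported here. Part of the genotype that all groups share is not reported here.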

Additional observations from a re-analysis of the deposited data

Results flagged for a closer look

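For 6 of the 10 genes the effect differed between the clones by the test of Vcam1KO1 against Vcam1KO2 itself, by quasi-likelihood in edgeR with Benjamini-Hochberg adjustment. Of all tested genes 38.7% were called in this comparison, 20.2% higher and 18.5% lower in Vcam1KO1. The call of *Lox* was lost on leaving out any 1 of 5 clone libraries, and that of *P4ha1* without replicate 2 of Vcam1KO2. As the log2 value of Vcam1KO1 minus that of Vcam1KO2, the difference was 0.86 for *Lox* and 1.43 for *Loxl1*. It was -1.04 for *Loxl4*, -1.13 for *Plod2*, -0.51 for *P4ha1* and -0.84 for *P4ha2*. The libraries of the clones did not overlap in any of these 6 genes, which held for 54.9% of all tested genes. Each clone is a single culture, so a difference between the clones and a difference between any 2 single cells of the line cannot be told apart. Single libraries were not tested for standing apart within a group, since each group holds 3.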

How the results depend on the processing

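Over the 10 genes and 4 comparisons, 550 values were recomputed under other settings, of which 524 kept their direction and their side of the threshold, 16 lost their call, 6 gained one and 4 turned sign. The signs that turned were near 0: *Plod2* in Vcam1KO1 lay between -0.12 and 0.05 with 1 library left out, and *Plod1* in Vcam1KO2 between -0.16 and 0.14. *Vcam1* between the clones lay between -0.07 and 0.22. With each library left out in turn, the enzyme genes higher in Vcam1KO1 than in Vcam1KO2 numbered 1 to 3, against 2 with all libraries, since *Lox* lost its call without any 1 of 5 libraries. The combined count of genes higher lay between 5 and 7, that in Vcam1KO1 between 5 and 6, and that in Vcam1KO2 stayed at 8. Over all 17672 tested genes, calls in either direction then numbered 5575 to 7961 combined, 9403 to 10234 in Vcam1KO1 and 7704 to 8685 in Vcam1KO2. Between the clones they numbered 4937 to 5999. With the average of the clones' contrasts, *Plod2* (0.54, edgeR adjusted p = 0.0031) and *P4ha2* (0.61, edgeR adjusted p = 0.001) passed in the combined comparison, so that 8 genes were higher. That setting called more genes in general, 10464 of the 17672 tested in either direction, against 7591 in the main fit. Between the clones *Plod3* passed with upper-quartile normalization (0.33, edgeR adjusted p = 0.033) and with a mean of at least 1 CPM (0.30, edgeR adjusted p = 0.043). *P4ha1* lost its combined call with no filter on low counts (edgeR adjusted p = 0.064), and its call in Vcam1KO1 with that setting (0.17) and with DESeq2's size factors in edgeR (0.058). The cause of these changes was not tested. The shares without replicate 3 of Vcam1KO1, and the order of levels by other lengths, were added after the data were seen. No paired analysis was possible because the labels carry no replicate numbers that tie libraries of different groups.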

Other observations

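Elastin is a substrate of the lysyl oxidases, and the genes of the elastic fibre moved in both directions. Of 16 elastic fibre genes 13 were tested, 6 were higher and 3 lower with both clones together (median log2 fold change 1.39). Over all tested genes 21.7% were higher and 21.2% lower. *Eln*, elastin, stood at 200.3, 91.6 and 62.7 CPM in control and at 0.0638 to 0.141 CPM in the clones, a log2 fold change of -10.11 (quasi-likelihood test of edgeR, Benjamini-Hochberg adjusted p = 4.4e-07). *Fbn1*, the main fibrillin, rose by 3.91 (edgeR adjusted p = 3.8e-05) and *Efemp1*, fibulin 3, by 5.91 (edgeR adjusted p = 0.0012). *Fbln5*, named after its values were seen because its protein ties *Loxl1* to elastin, stood at 4.10 to 8.35 CPM in Vcam1KO1 and at 0.0296 to 0.332 CPM in the other 6 libraries.

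Of 15 TGF-beta genes 5 were higher and 5 lower (median 0.07), where 21.7% of all tested genes were higher and 21.2% lower. *Tgfbi* rose by 4.88 (edgeR adjusted p = 5.6e-05) and *Tgfb3*, a ligand, by 4.70 (edgeR adjusted p = 5.9e-05), and *Tgfbr1*, a receptor, fell by 1.51 on the log2 scale (edgeR adjusted p = 0.0014).

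Across the 9 libraries, the gene outside the 10 whose log2 CPM followed *Lox* most closely, among 10867 genes searched, was *Tspan6* (Pearson r = 0.998), and for *Loxl1* it was *Tln2* (0.998), for *Loxl4* *Msn* (0.990), for *Plod2* *Kctd15* (0.981), for *Plod3* *Cnn2* (0.998) and for *P4ha2* *Ifi47* (0.996). Among the 10 genes themselves, *Plod2* and *P4ha2* had r = 0.961, and *Lox* and *Plod3* 0.983. The libraries form 3 groups, so these values mostly describe differences between the groups.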
